A study of Mus musculus with 6 samples.

Results

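The genes described here encode 9 receptors and receptor subunits of the platelet surface: *Gp1ba*, *Gp1bb*, *Gp9*, *Gp5*, *Gp6*, *Itga2b*, *Itgb3*, *Clec1b* and *Treml1*. They were taken by name from a list of platelet and megakaryocyte receptors, with earlier results of these data known. They are 9 of 16048 genes tested. All 9 passed the filter on low counts. RNA was sequenced from E9.5 mouse hearts in 6 libraries, 3 from FlncgKO embryos and 3 from littermate controls, all on a C57BL/6 background. In FlncgKO embryos floxed *Flnc*, the filamin C gene, was deleted by Sox2Cre, which acts in the whole embryo, so the deletion is not limited to heart muscle or to blood cells. The labels call the other embryos control and do not say which floxed or Cre alleles they carried. The number of hearts behind a library is not given in the sources used here, so the p-values measure the spread between these libraries only.

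Platelets are shed by megakaryocytes, and both cell types carry the same set of adhesion receptors. The GPIb-IX-V complex, built from GPIbα, GPIbβ, GPIX and GPV, binds von Willebrand factor, and the tail of GPIbα is anchored to filamin A. GPVI, which signals through the Fc receptor γ chain, binds collagen, and CLEC-2 binds podoplanin. These signals converge on integrin αIIbβ3, the fibrinogen receptor. In the mouse embryo *Itga2b* is also a marker of early blood progenitors, and β3 pairs with αV in many other cell types.

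Depth per library lay between 19208859 and 23123255 estimated counts, with 10 or more counts for 15579 to 16146 genes. *Flnc* had 127, 111 and 240 CPM (counts divided by TMM-scaled library size) in FlncgKO libraries 1, 2 and 3, against 844, 623 and 746 CPM in control libraries 1, 2 and 3. All FlncgKO libraries lay below all controls for *Flnc* (log2 fold change −2.21 ± 0.35, SE; edgeR quasi-likelihood adjusted p = 0.0656, DESeq2 adjusted p = 9.94e-07). FlncgKO library 3 had the most *Flnc* of the FlncgKO libraries. Summed cardiomyocyte markers were at 24160 to 28260 CPM in FlncgKO and 25920 to 30020 CPM in control libraries. Summed Y-linked genes were at 80.7, 3.88 and 4.28 CPM in FlncgKO libraries 1 to 3 and at 117 to 140 CPM in controls. Y-linked RNA was thus low in FlncgKO libraries 2 and 3 and in no control library, as in mouse tissue from females, so the makeup by sex may differ between the groups and cannot be fully told apart from genotype. FlncgKO library 1, with a Y-linked level nearest to the controls, had the highest level of each of the 9 receptor genes.

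The stretch before the start of *Gp1ba*, *Gp9* and *Gp5* is printed because these genes encode partners in a single complex and their RNAs varied together here. Each sequence is the 150 bases before the RefSeq start on GRCm38.p6, in the direction of transcription, from windows in which the annotation places no exon. Capitals mark matches of 6 bases on either strand. A GATA-type match is GATA with A or T before it and A or G after it, and an ETS-type match is GGAAG with A or C before it. No matches overlapped in these windows. GATA1 and the ETS factor FLI1 are transcription factors of megakaryocytes.
Gp1ba, chr11:70638972-70639121, plus strand: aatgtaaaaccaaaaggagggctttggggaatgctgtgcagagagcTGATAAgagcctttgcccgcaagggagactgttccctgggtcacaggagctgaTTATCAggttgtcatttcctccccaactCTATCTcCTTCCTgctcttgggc
Gp9, chr6:87777920-87778069, plus strand: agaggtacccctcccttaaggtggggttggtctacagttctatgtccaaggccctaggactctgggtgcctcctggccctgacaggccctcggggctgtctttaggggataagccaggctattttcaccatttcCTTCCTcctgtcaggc
Gp5, chr16:30310782-30310931, minus strand: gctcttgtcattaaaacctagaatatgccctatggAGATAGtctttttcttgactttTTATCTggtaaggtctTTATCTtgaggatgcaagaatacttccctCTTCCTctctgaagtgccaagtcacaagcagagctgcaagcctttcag

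RefSeq promoters of 300 bases were found for 8 of the 9 genes, and *Itgb3* had no entry. Positions give the first base of a match from the start. *Gp1ba* held 3 GATA-type matches, at −104, −51 and −23, and 1 ETS-type match at −16. *Gp5* held GATA-type matches at −115, −93 and −77 and an ETS-type match at −48. *Gp1bb* held 1 GATA-type match at −22 and ETS-type matches at −90 and 21. *Gp9* held only an ETS-type match, at −16 as in *Gp1ba*. *Gp6* held 1 GATA-type match at −144, *Clec1b* GATA-type matches at −189 and 38, and *Itga2b* ETS-type matches at −125 and −43, while no such letters were found in the *Treml1* window. Of the 8 promoters 5 held a GATA-type match, 5 an ETS-type match and 3 both. Among 32851 promoters of the same length, 29.8% held a GATA-type match, 46.5% an ETS-type match and 12.6% both. These matches describe letters only.

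Every one of the 9 receptor genes was higher in all FlncgKO libraries than in any control library. The log2 fold changes ran between 2.13 for *Itgb3* and 5.54 for *Treml1*, with a median of 3.40 over the 9 genes against 0.0087 over all genes tested. The median was 4.17 without control library 3, 4.04 with offsets for transcript length and 4.12 with the Y-linked covariate in edgeR. It was lower in other edgeR fits, at 2.95 without FlncgKO library 1 and 3.289 without FlncgKO library 2. Without control library 2 it was 3.235, and with the replicate block 3.238. *Gp1bb* was the median gene with all libraries, and its own value was 4.17 without control library 3. Whether this is called depended on the test. Past an adjusted p of 0.05, edgeR's quasi-likelihood test called 0 of the 9 genes, with adjusted p-values between 0.0501 and 0.135, while it called 1.06% of all genes tested higher and 0.249% lower in FlncgKO. At an unadjusted p under 0.05 edgeR found all 9 genes higher, against 13.3% of all genes tested. DESeq2, which is the tool named in the study's methods, called all 9 genes higher, with adjusted p-values between 1.78e-12 and 0.00481, against 6.22% of genes higher and 2.27% lower. Non-overlap with FlncgKO above control was seen in 9 of 9 receptor genes and in 15.7% of all genes tested. Of the 9 genes 8 were among the 100 largest log2 fold changes. Because the 9 genes were chosen with earlier results of these data known, their counts beside these shares are descriptive only. In bulk tissue, more cells of a type and more RNA per cell cannot be told apart.

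FlncgKO library 3 had the lowest FlncgKO level of all 9 genes and library 1 the highest. Summed over the 9 genes, the level was 795, 489 and 179 CPM in FlncgKO libraries 1 to 3, against 87.6, 67.3 and 102 CPM in control libraries 1 to 3. Library 3 therefore lay much closer to the controls than the other FlncgKO libraries did. Without FlncgKO library 3, edgeR called all 9 genes, with adjusted p-values between 5.78e-05 and 0.0335, and called 1272 genes in all. With all libraries it called 210. Without control library 1 or control library 2, edgeR called 1 gene in all and none of the 9. DESeq2 kept all 9 genes when any single library was left out, except *Itgb3*, which had an adjusted p of 0.058 without control library 2 and of 0.0689 without FlncgKO library 2. With the Y-linked level as a covariate, an alternative chosen after seeing the data for DESeq2, that tool called all 9 genes and edgeR called 0 genes in all.

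**Figure D1:**
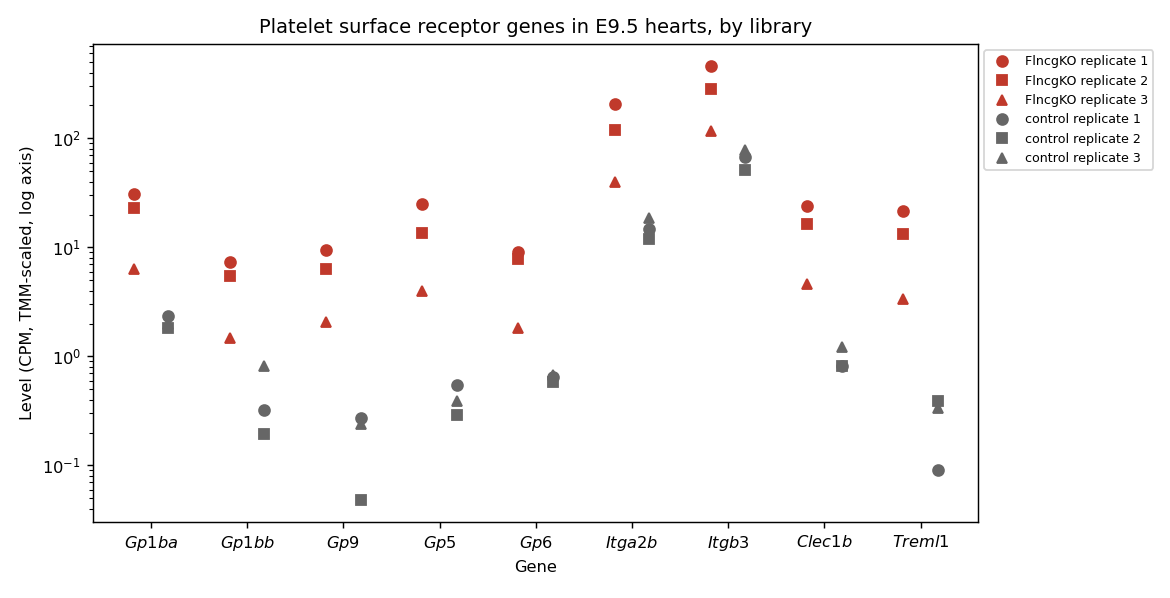
Level of each receptor gene (CPM on a log axis) in each library, with FlncgKO libraries in red left of control libraries in grey, and a marker shape per replicate number. Every red point lies above the grey points of its gene, and FlncgKO replicate 3 is the lowest red point in all 9 genes.

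The genes of the GPIb-IX-V complex had the following levels. *Gp1ba* (ENSMUSG00000050675, chr11:70639122-70642036, plus strand) encodes the subunit that binds von Willebrand factor. It was at 30.7, 23.1 and 6.36 CPM in FlncgKO libraries 1 to 3, against 2.33, 1.83 and 1.98 CPM in control libraries 1 to 3. The controls lay close together and the lowest FlncgKO library was still well above them. The log2 fold change was 3.29 ± 0.65 (SE), with an adjusted p of 0.0814 in edgeR and 2.53e-05 in DESeq2.

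*Gp1bb* (ENSMUSG00000050761, chr16:18620317-18622403, minus strand) encodes the chain linked to GPIbα by disulfide bonds. It was at 7.29, 5.47 and 1.46 CPM in FlncgKO libraries, against 0.320, 0.193 and 0.821 CPM in control libraries. Control library 3 was the highest control and FlncgKO library 3 lay nearest to it. Its log2 fold change was 3.40 ± 0.78 (adjusted p = 0.0866 in edgeR and 2.46e-05 in DESeq2). The gene overlaps *Sept5* and the gene model *Gm49601* on the same strand, and reads in shared sequence cannot be assigned with certainty. *Sept5* was at 5.68, 5.82 and 10.1 CPM in FlncgKO libraries, against 4.34, 3.91 and 5.07 CPM in controls. *Gm49601* had 5, 6 and 5 counts in FlncgKO libraries, against 21, 4 and 33 counts in controls, where *Gp1bb* had 7, 4 and 17 counts. The controls thus held more *Gm49601* than *Gp1bb* counts in libraries 1 and 3, so the *Gp1bb* fold change depends on how reads were split between the genes, which was not tested.

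*Gp9* (ENSMUSG00000030054, chr6:87778072-87779768, plus strand) encodes GPIX, which the complex needs to reach the cell surface. It was at 9.52, 6.35 and 2.09 CPM in FlncgKO libraries, against 0.274, 0.0483 and 0.242 CPM in control libraries. These controls rest on 6, 1 and 5 counts, and the single count of control library 2 has an exact Poisson 95% interval of 0.0253 to 5.57 counts, which covers counting error only. Its fitted log2 fold change was 4.95 ± 0.78 (adjusted p = 0.0501 in edgeR and 2.2e-10 in DESeq2).

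*Gp5* (ENSMUSG00000047953, chr16:30307685-30310779, minus strand) encodes GPV, which thrombin cleaves from the platelet. It was at 24.9, 13.6 and 3.96 CPM in FlncgKO libraries, against 0.549, 0.290 and 0.386 CPM in control libraries, where it had 12, 6 and 8 counts. The groups were far apart, with the lowest FlncgKO library several times the highest control. On the log2 scale the fold change was 5.09 ± 0.85 (adjusted p = 0.0647 in edgeR and 5.3e-08 in DESeq2).

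The receptors for collagen and podoplanin were lower in TPM than the integrin genes. *Gp6* (ENSMUSG00000078810, chr7:4363965-4397744, minus strand) encodes GPVI. It was at 9.12, 7.76 and 1.82 CPM in FlncgKO libraries, against 0.640, 0.579 and 0.676 CPM in controls, and the controls differed little among themselves. The log2 fold change was 3.29 ± 0.62 (adjusted p = 0.0659 in edgeR and 6.13e-07 in DESeq2). Its signalling partner *Fcer1g* was at 4.83, 3.35 and 1.41 CPM in FlncgKO libraries, against 0.412, 0.0483 and 1.16 CPM in controls. Control library 3 came close to FlncgKO library 3 for this gene (log2 fold change 2.56 ± 0.90, adjusted p = 0.180 in edgeR and 0.0172 in DESeq2). *Fcer1g* is also used by myeloid cells.

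*Clec1b* (ENSMUSG00000030159, chr6:129397297-129409335, plus strand) encodes CLEC-2. It was at 24.2, 16.3 and 4.59 CPM in FlncgKO libraries, against 0.823, 0.820 and 1.21 CPM in control libraries. The lowest FlncgKO library was above the highest control by more than the spread of the controls. Its log2 fold change was 3.98 ± 0.70 (adjusted p = 0.0687 in edgeR and 1.78e-12 in DESeq2). *Clec1b* overlaps *Clec9a* on the same strand. *Clec9a* was at 3.26, 3.18 and 1.04 CPM in FlncgKO libraries, against 0.183, 0.579 and 0.242 CPM in controls, and the share of reads that the pair exchange was not tested.

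*Treml1* (ENSMUSG00000023993, chr17:48359916-48367176, plus strand) encodes TLT-1, a receptor kept in platelet granules and brought to the surface on activation. It was at 21.7, 13.3 and 3.39 CPM in FlncgKO libraries, against 0.0915, 0.386 and 0.338 CPM in control libraries. The controls held only 2, 8 and 7 counts, and 2 counts have an exact Poisson 95% interval of 0.242 to 7.23. In control libraries 1, 2 and 3 these counts were assigned to different transcripts, of 1220, 974 and 1235 bases. In FlncgKO libraries most counts fell on the transcript of 1235 bases. The interval does not cover error in that assignment. The log2 fold change of 5.54 ± 0.95 ranked 2 of 16048 genes tested (adjusted p = 0.0675 in edgeR and 3.12e-07 in DESeq2).

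The integrin genes had the most TPM of the 9 in both groups. *Itga2b* (ENSMUSG00000034664, chr11:102453297-102470122, minus strand) encodes αIIb. It was at 204, 118 and 39.8 CPM in FlncgKO libraries, against 14.6, 11.9 and 18.4 CPM in control libraries. The log2 fold change was 3.01 ± 0.70 (adjusted p = 0.108 in edgeR and 2.27e-04 in DESeq2). *Itgb3* (ENSMUSG00000020689, chr11:104608000-104670476, plus strand) encodes β3. It was at 464, 285 and 116 CPM in FlncgKO libraries, against 67.9, 51.3 and 77.6 CPM in control libraries, and had the smallest fold change of the 9 (log2 2.13 ± 0.58, adjusted p = 0.135 in edgeR and 0.00481 in DESeq2). For both integrin genes control library 3 was the highest control.

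Levels were compared between genes as TPM, the deposited abundance that allows for transcript length. In FlncgKO libraries the mean TPM ran in the order *Itgb3*, *Itga2b*, *Clec1b*, *Treml1*, *Gp9*, *Gp1bb*, *Gp5*, *Gp1ba* and *Gp6*, between 78.4 ± 47.0 and 2.72 ± 1.95 TPM (SD, n = 3). The ranges of all neighbours in that order overlapped, since the libraries differed so much, but within each of the 3 libraries *Itgb3* was above *Itga2b*, *Itga2b* above *Clec1b*, *Clec1b* above *Treml1* and *Gp1ba* above *Gp6*. In control libraries the order was *Itgb3*, *Itga2b*, *Clec1b*, *Gp1ba*, *Gp1bb*, *Gp9*, *Treml1*, *Gp5* and *Gp6*, between 17.6 ± 3.55 and 0.201 ± 0.0148 TPM. Ranges overlapped there between *Clec1b* and *Gp1ba*, between *Gp9* and *Treml1*, and between *Treml1* and *Gp5*.

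*Itgb3* made up 31.3%, 31.1% and 38.3% of the summed TPM of the 9 genes in FlncgKO libraries, against 58.4%, 56.1% and 56.5% in control libraries. The share of *Itga2b* was 28.0%, 25.7% and 26.2% in FlncgKO libraries, against 25.9%, 26.0% and 28.3% in controls, and overlapped between the groups. *Gp5* took 5.67%, 5.01% and 4.37% in FlncgKO libraries, against 1.60%, 1.16% and 1.02% in controls. *Gp9* took 5.90%, 6.38% and 6.17% in FlncgKO libraries, against 2.15%, 0.490% and 1.65% in controls. Among FlncgKO libraries these shares differed by far less than the summed level did.

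Ratios between subunits were taken within each library from TPM, so they do not depend on how libraries are scaled. There were 7 pairs. With 3 libraries against 3 the exact permutation test (two-sided) cannot go below p = 0.1, and 6 pairs reached that value (0.117 adjusted over the pairs by Benjamini-Hochberg). The ratio *Itga2b* to *Itgb3* was 0.896, 0.827 and 0.685 in FlncgKO libraries, against 0.445, 0.464 and 0.502 in control libraries. FlncgKO libraries were all above controls, by 0.77 on the log2 scale, and the 95% counting intervals of the groups did not touch (lowest bound 0.630 in FlncgKO, highest 0.561 in control). The *Itga2b* TPM here sums coding and noncoding transcripts, so the size of the ratio depends on which are counted. The ratio of *Itgav*, the alternative partner of β3, to *Itgb3* was 0.331, 0.564 and 1.18 in FlncgKO libraries, against 1.74, 2.17 and 1.50 in controls. By TPM, *Itgav* was thus above *Itgb3* in all 3 control libraries and in FlncgKO library 3 only among the FlncgKO libraries. In FlncgKO library 3 the estimated counts ran the other way, with 2153 for *Itgav* and 2217 for *Itgb3*. The order there depends on the transcript lengths used for TPM.

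Within the GPIb-IX-V complex, *Gp5* to *Gp1ba* was 1.19, 0.857 and 0.917 in FlncgKO libraries, against 0.347, 0.261 and 0.319 in control libraries, a log2 difference of 1.67. The 95% counting intervals just overlapped (lowest bound 0.679 in FlncgKO, highest 0.689 in control), and the control ratios rest on 12, 6 and 8 *Gp5* counts. *Gp9* to *Gp1ba* was 1.23, 1.09 and 1.29 in FlncgKO libraries, against 0.462, 0.116 and 0.510 in controls, and the counting intervals of the control ratios reached 1.29, into the FlncgKO range. *Gp1bb* to *Gp1ba* was 1.14, 1.12 and 1.09 in FlncgKO libraries, against 0.684, 0.660 and 0.719 in controls. That difference was 0.70 on the log2 scale but 0.29 when estimated counts replaced TPM (exact permutation p = 0.7). In control library 3 the *Gp1bb* counts were assigned to a transcript of 2085 bases and in all other libraries to one of 1086 bases. The 95% counting intervals of the *Gp1bb* ratio in controls ran from 0.171 to 1.83 over the 3 libraries and each held 1, so an order between *Gp1bb* and *Gp1ba* in controls was not detectable at this depth. *Clec1b* to *Gp6* was 9.02, 8.28 and 11.4 in FlncgKO libraries, against 4.43, 6.38 and 8.25 in controls, so the nearest values of the groups nearly met. *Fcer1g* to *Gp6* was 4.58, 4.80 and 9.80 in FlncgKO libraries, against 8.11, 2.30 and 23.7 in controls, with no separation (exact permutation p = 0.8).

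**Figure D2:**
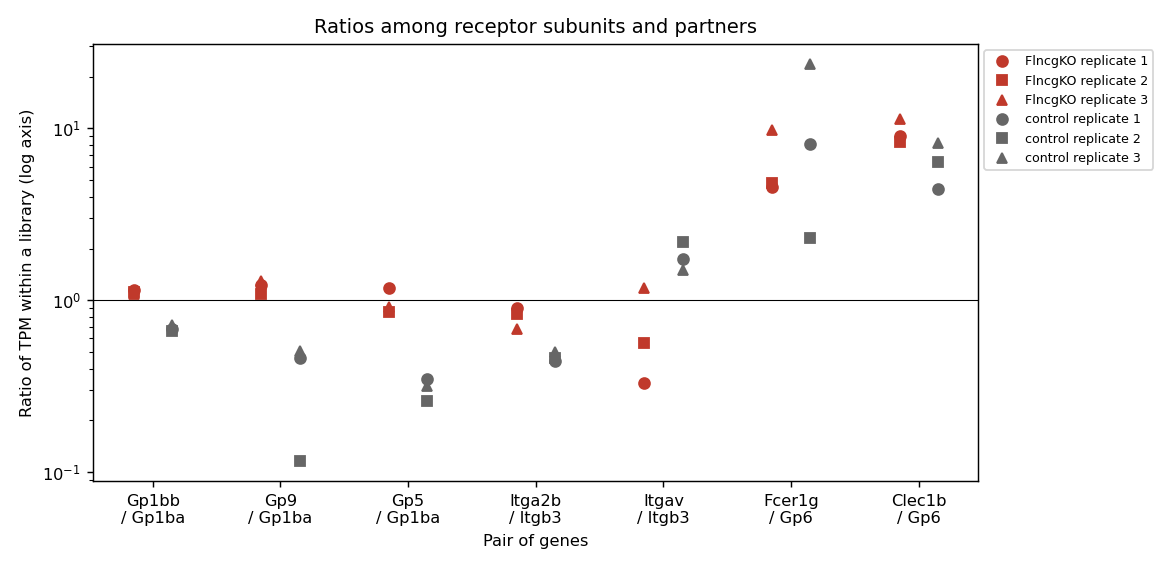
Ratio of TPM within each library for 7 pairs of genes (log axis, line at 1), with FlncgKO libraries in red left of control libraries in grey. The groups are apart in every pair but Fcer1g to Gp6, and the 3 GPIb-IX-V ratios lie between 0.857 and 1.29 in FlncgKO libraries.

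A further measure, chosen after the data were seen, was the TPM above the control mean. For *Itga2b* it was 104, 57.2 and 12.9 TPM in FlncgKO libraries 1 to 3, and for *Itgb3* it was 107, 61.6 and 13.4 TPM. The ratio of the 2 excesses was 0.966, 0.929 and 0.965, closer to 1 and less spread than the ratio of the levels. For *Itga2b* the gene TPM sums 10 transcripts. Its coding transcript had 77.0, 46.9 and 14.9 of the 112, 65.5 and 21.2 TPM in FlncgKO libraries 1 to 3. The rest came from noncoding (processed) transcripts, so nearness to 1 depends on counting them. A ratio from the coding transcript alone was not taken. The shift toward 1 with less spread was not shared by the other pairs. The ratio of excesses was 1.18, 1.16 and 1.28 for *Gp1bb* to *Gp1ba* and 1.30, 1.16 and 1.74 for *Gp9* to *Gp1ba*, both farther from 1 and more spread than the ratios of the levels, and 1.25, 0.908 and 1.21 for *Gp5* to *Gp1ba*. The excess in FlncgKO library 3 was between 9.08% (*Gp6*) and 19.6% (*Gp9*) of that in library 1, and the excess in library 2 between 55.1% (*Itga2b*) and 76.4% (*Gp1ba*). The αV gene *Itgav* was at 41.3, 44.6 and 36.6 TPM in FlncgKO libraries, against 32.4, 29.7 and 30.8 TPM in controls (log2 fold change 0.37 ± 0.07, adjusted p = 0.0501 in edgeR and 4.82e-04 in DESeq2), and its highest library was FlncgKO 2, unlike the 9 receptor genes.

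**Figure D3:**
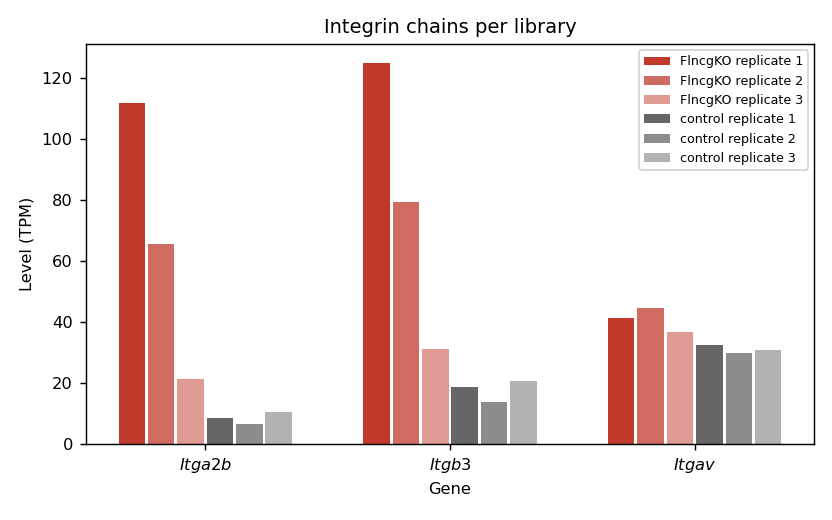
Level in TPM of Itga2b, Itgb3 and Itgav in each library, with bars from 0, red for FlncgKO and grey for control. Itga2b and Itgb3 rank the FlncgKO libraries alike, while Itgav stays between 36.6 and 44.6 TPM in those libraries.

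The estimates by transcript showed which RNAs carried these levels. *Itgb3* counts fell on 1 transcript of 5784 bases in all libraries, and *Itga2b* counts mainly on a transcript of 3437 bases, at 77.0, 46.9 and 14.9 TPM in FlncgKO libraries. That transcript was at 5.50, 4.48 and 6.43 TPM in control libraries. The other *Itga2b* transcripts, all noncoding, held a larger share of the gene's TPM than of its counts in every library. A *Clec1b* transcript of 614 bases was at 9.05, 4.65 and 1.53 TPM in FlncgKO libraries and was listed at 0 in all controls. A *Gp6* transcript of 965 bases was at 1.75 and 0.778 TPM in FlncgKO libraries 1 and 2 and was listed at 0 in FlncgKO library 3 and in all controls. Control libraries held only 17 to 25 counts of *Clec1b* and 12 to 14 counts of *Gp6* in all.

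Of 26 other platelet receptors and receptor partners, 23 were tested, and edgeR called 2 higher and 0 lower. DESeq2 called 16 higher and 0 lower, and 18 did not overlap between groups. Here and in the lists that follow, the shares over all genes tested are 1.06% called higher by edgeR, 6.22% called higher by DESeq2 and 15.7% not overlapping with FlncgKO above control. The median log2 fold change was 0.99. *Ly6g6f*, a platelet membrane protein of the immunoglobulin superfamily, was at 8.85, 5.91 and 1.88 CPM in FlncgKO libraries, against 0.0457, 0.193 and 0.193 CPM in controls (log2 5.23 ± 0.77, edgeR adjusted p = 0.0423). *Pear1*, which signals on platelet contact and is also expressed by endothelium, was at 31.7, 27.4 and 20.2 CPM in FlncgKO libraries, against 13.8, 14.5 and 12.3 CPM in controls (log2 0.97 ± 0.17, edgeR adjusted p = 0.0455). The 3 genes not tested were *P2ry12*, *Ptgir* and *Selp*. *P2ry12*, the ADP receptor of mature platelets, was at 0, 0.0441 and 0.209 CPM in FlncgKO libraries, against 0, 0 and 0.0483 CPM in controls. *Selp*, the P-selectin gene, was at 0.492, 0.441 and 0.209 CPM in FlncgKO libraries, against 0.0915, 0 and 0.145 CPM in controls.

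Of 26 genes that signal below these receptors, all were tested, edgeR called 3 higher and 0 lower, DESeq2 called 19 higher and 0 lower, 21 did not overlap, and the median log2 fold change was 0.84. *Vav1*, a guanine nucleotide exchange factor of blood cells, was at 8.09, 4.99 and 2.29 CPM in FlncgKO libraries, against 0.457, 0.434 and 0.531 CPM in controls (log2 3.42 ± 0.48, edgeR adjusted p = 0.0372). *Tln1*, which encodes talin, the activator of integrin β tails, was at 602, 534 and 464 CPM in FlncgKO libraries, against 334, 368 and 362 CPM in controls (log2 0.59 ± 0.10, edgeR adjusted p = 0.0411). *Flna*, the gene of filamin A, was at 1019, 1029 and 933 CPM in FlncgKO libraries, against 746, 731 and 722 CPM in controls (log2 0.44 ± 0.05, edgeR adjusted p = 0.0310). *Tln1* and *Flna* are expressed in most cell types, and FlncgKO library 3 was closer to the other FlncgKO libraries for them than for the receptor genes. This list was mixed too, with 24 of 26 log2 fold changes positive. *Lcp2* (5.14), *Btk* (4.78) and *Fyb* (4.44) were highest in FlncgKO library 1 and lowest in FlncgKO library 3 among FlncgKO, as the receptor genes were. *Ptpn11* had 0.10, *Gnaq* −0.01 and *Apbb1ip* −0.13. These 6 genes are named after their values were seen.

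Of 12 ligand genes edgeR tested 9 and called 0, and DESeq2 tested 10 and called 4 higher and 0 lower. In 4 the groups did not overlap, with a median log2 fold change of 0.15. At an unadjusted p under 0.05 edgeR found 4 ligand genes higher. *Vwf*, the ligand of GPIb, which endothelium and megakaryocytes make, was at 123, 135 and 68.8 CPM in FlncgKO libraries, against 44.5, 55.9 and 52.5 CPM in controls (log2 1.10 ± 0.27, adjusted p = 0.104 in edgeR and 0.00888 in DESeq2). *Pdpn*, the ligand of CLEC-2, was at 13.4, 10.8 and 20.5 CPM in FlncgKO libraries, against 14.1, 12.7 and 17.5 CPM in controls, and the groups overlapped. The next genes are named after their values were seen. *Thbs1*, which encodes thrombospondin 1, a platelet granule and matrix protein, was at 894, 608 and 206 CPM in FlncgKO libraries, against 49.99, 66.8 and 49.95 CPM in controls (log2 3.36 ± 0.63, adjusted p = 0.0850 in edgeR and 1.67e-06 in DESeq2). *Col1a1*, a chain of the collagen that GPVI binds, was at 98.9, 144 and 215 CPM in FlncgKO libraries, against 32.7, 22.3 and 35.3 CPM in controls (log2 2.34 ± 0.36, adjusted p = 0.0605 in edgeR and 5.13e-08 in DESeq2). *Col1a1* was highest in FlncgKO library 3, where the receptor genes and *Thbs1* were lowest among FlncgKO. Other collagen genes of the list changed less. *Col1a2* had log2 0.50 ± 0.17 (adjusted p = 0.155 in edgeR and 0.0218 in DESeq2). *Col3a1* had log2 −0.11 ± 0.23, and the groups overlapped. Of the fibrinogen genes, edgeR did not test *Fga* and *Fgg*. *Fgb* had log2 −3.60 ± 1.74 (edgeR adjusted p = 0.308), with 189 counts in control library 1 and few elsewhere.

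Of 13 megakaryocyte transcription factors, all tested, edgeR called 0 and DESeq2 called 6 higher (7 were higher in edgeR before adjustment, at p under 0.05). Their median log2 fold change was 0.81. Of 13 other megakaryocyte and platelet markers edgeR also called 0 and DESeq2 called 10 higher (10 in edgeR before adjustment). In 10 of these markers the groups did not overlap, with FlncgKO above control. Their median of 3.29 was close to the 3.40 of the receptor genes. Summed, these markers were at 1709, 1228 and 491 CPM in FlncgKO libraries 1 to 3, against 222, 254 and 242 CPM in control libraries, in the same order over FlncgKO libraries as the receptors. *Thbs1* was the largest part of the FlncgKO sums, with 894, 608 and 206 CPM. *Thbs1* and *Vwf* are in the ligand list as well, so the 2 lists are not independent. *Pf4*, the platelet factor 4 gene, named here after its values were seen, was at 82.2, 58.5 and 11.9 CPM in FlncgKO libraries, against 1.19, 0.820 and 0.918 CPM in controls. It had the largest log2 fold change of all genes tested. *Srgn*, *Serpine2* and *Nbeal2*, of the same list, were called by neither tool and overlapped between the groups. Their log2 fold changes were 0.21, 0.08 and 0.66, and *Srgn* was highest in FlncgKO library 3 (20.7 CPM).

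Among the 6 genes whose log2 CPM over the 6 libraries was most like the mean of the receptor genes, out of 14325 genes with a mean of at least 1 CPM, were *Fermt3*, *Cnn2*, *Smim3*, *Plek* and *F5*, with Pearson r between 0.996 and 0.998. The 6 libraries form separate groups, so these values describe likeness only. *Fermt3*, which encodes the integrin activator kindlin-3, was at 122, 68.1 and 19.7 CPM in FlncgKO libraries, against 5.53, 4.15 and 7.29 CPM in controls. *Cnn2* (calponin 2) shared the pattern at a small scale, with 626, 612 and 557 CPM in FlncgKO libraries, against 499, 501 and 508 CPM in controls. Each receptor gene had r between 0.969 (*Treml1*) and 0.998 (*Clec1b*) with the mean of the other receptor genes.

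Markers of other cell types moved in other ways, and their part in the result was not tested. Of 9 erythroid markers edgeR and DESeq2 called 0, 0 passed an unadjusted p under 0.05 in edgeR, and none separated the groups. Their summed level was 7969, 7010 and 11260 CPM in FlncgKO libraries 1 to 3, against 2923, 2864 and 8189 CPM in control libraries 1 to 3. It was thus highest in FlncgKO library 3, where the receptor genes were lowest among FlncgKO, and high in control library 3, where the summed receptor genes were at 102 CPM. Of 9 leukocyte markers 4 were tested and edgeR and DESeq2 called 0, with 1 higher at an unadjusted p under 0.05 in edgeR. Their summed level was 6.80, 5.47 and 26.5 CPM in FlncgKO libraries, against 5.31, 4.30 and 12.6 CPM in controls. Both sums were highest in library 3 of the group. *Csf1r* was at 2.19, 1.72 and 15.8 CPM in FlncgKO libraries, against 1.46, 0.917 and 5.99 CPM in controls, and *Ptprc* at 0.358, 0.353 and 3.49 CPM in FlncgKO libraries, against 0.320, 0.0965 and 0.918 CPM in controls. *Spi1* was at 1.16, 0.882 and 0.678 CPM in FlncgKO libraries, against 0.457, 0.193 and 0.435 CPM in controls (log2 1.31 ± 0.40, edgeR unadjusted p = 0.0125, edgeR adjusted p = 0.119). *Adgre1* was at 0 in FlncgKO library 2 and in control libraries 1 and 2. Of 6 blood progenitor markers 5 were tested, edgeR called *Cd34* higher and DESeq2 called 3 higher. *Cd34*, also an endothelial gene, was at 84.3, 97.9 and 83.4 CPM in FlncgKO libraries, against 49.5, 58.3 and 52.5 CPM in controls (log2 0.73 ± 0.09, edgeR adjusted p = 0.0310). Of 8 endothelial and endocardial markers edgeR called 1, *Emcn* (log2 1.24 ± 0.16, adjusted p = 0.0353), and DESeq2 called 3 higher and 2 lower. Of 8 cardiomyocyte markers edgeR called 0 and DESeq2 called 1 in each direction (before adjustment edgeR had 1 higher and 2 lower). Of 4 epicardial markers both tools called 0 (before adjustment edgeR had 1 in each direction).

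**Figure D4:**
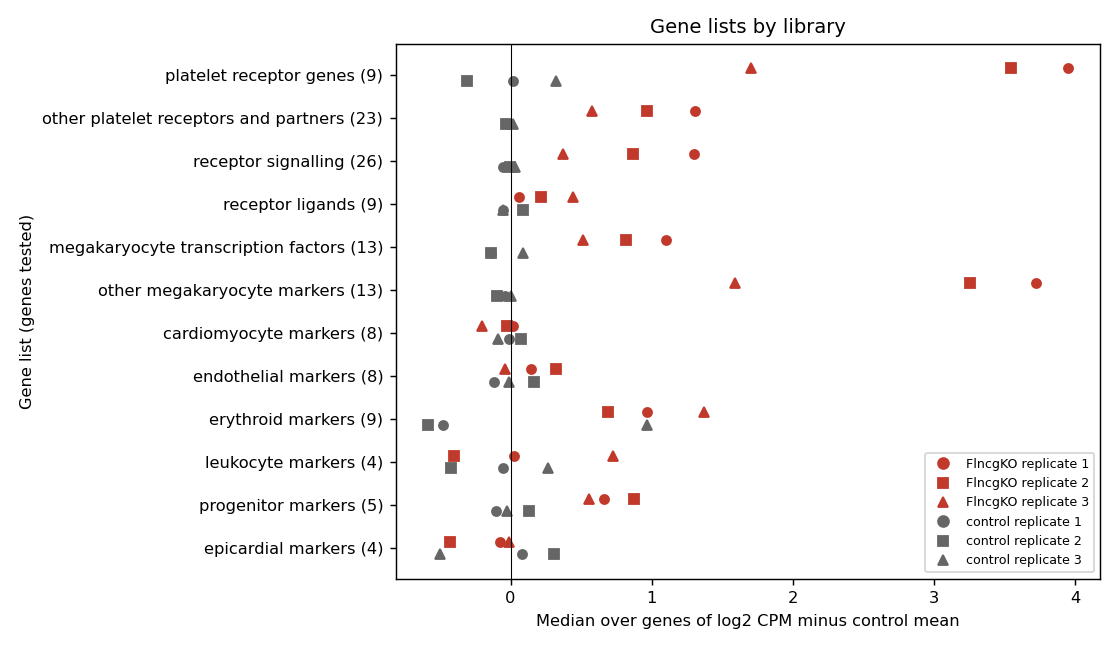
For each gene list and library, the median distance of its tested genes from their control mean, in log2 CPM, with FlncgKO libraries in red above control libraries in grey. The receptor genes (3.95, 3.54 and 1.70 in FlncgKO libraries 1 to 3) and the other megakaryocyte markers lie farthest to the right, and the erythroid markers show control replicate 3 among the FlncgKO libraries.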

How the data were processed

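Polyadenylated RNA of E9.5 hearts (the study's methods speak of hearts or isolated ventricles, the labels of whole heart) was sequenced from stranded libraries. The authors quantified transcripts with Salmon (version not given in the sources used here) on GENCODE M22, GRCm38.p6, and deposited, for each of 140658 transcripts, an estimated count and a TPM value. They tested with DESeq2 1.22.2. Here transcripts were joined to genes through GENCODE M21 (GRCm38). Unmatched transcripts (0.37%, carrying between 0.108% and 0.131% of all counts) were not used.

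Per gene, the sum of the deposited estimated counts was rounded to a whole number. The main test was edgeR 4.0.16 in R 4.3.3 (robust quasi-likelihood, TMM, filterByExpr with a minimum of 10 counts), with Benjamini-Hochberg adjustment over all genes tested and a threshold of 0.05. DESeq2 1.42.0 was an alternative. Fits were tested on simulated data. Libraries were treated as unpaired. Ratios used the authors' TPM plus a pseudocount of 0.01, with exact permutation tests over libraries. The 95% intervals are exact Poisson for counts and exact binomial for ratios, and both cover counting error only.

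The genes and lists were chosen with earlier results of these data known. Named genes are the 9 receptor genes, *Flnc*, genes of the ratio pairs, *Vwf* and *Pdpn*, genes that overlap a receptor gene, the 6 genes most alike (1 of them is not reported here), and list members past the edgeR threshold where 5 or fewer passed. Genes named outside this rule are *P2ry12*, *Ptgir*, *Selp*, *Pf4*, *Srgn*, *Serpine2*, *Nbeal2*, *Thbs1*, *Col1a1*, *Col1a2*, *Col3a1*, *Fga*, *Fgb*, *Fgg*, *Csf1r*, *Ptprc*, *Spi1* and *Adgre1*, chosen after their values were seen. The same holds for *F2rl2*, *Cd226*, *Mpig6b*, *F2rl3*, *Tbxa2r*, *Itgb1*, *F11r*, *Jam3*, *Lcp2*, *Btk*, *Fyb*, *Ptpn11*, *Gnaq*, *Apbb1ip*, *Gata1* and *Fli1*. Promoters came from RefSeq (GRCm38.p6).

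Alternatives were RLE scaling, total counts only, 2 other count filters, transcript length offsets, a block for the replicate number, a Y-linked covariate, leaving out each library, DESeq2, counts in place of TPM, and a pseudocount of 0.1 TPM. DESeq2 with the Y-linked covariate or the block, and the excess over the control mean, were added after seeing the data.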

Additional observations from a re-analysis of the deposited data

How the results depend on the processing

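Under 23 alternatives the 203 log2 fold changes of the receptor genes were all positive, between 1.60 and 6.53. The alternatives reuse the same 6 libraries, in which the groups did not overlap for any of the 9 genes. The shared sign was therefore largely fixed beforehand and is no separate evidence. The Y-linked covariate in edgeR moved them to between 2.95 (*Itgb3*) and 6.49 (*Treml1*), with adjusted p-values between 0.187 and 0.387. Without FlncgKO library 1, *Gp5* was at 4.403, *Itga2b* at 2.40 and *Treml1* at 4.92 in edgeR. The number of receptor genes called, 0 in edgeR, was 9 in DESeq2, 9 with DESeq2 and length offsets, 9 with DESeq2 and the replicate block and 9 with DESeq2 and the Y-linked covariate. Leaving out 1 library gave 0 to 9 in all, with 9 in edgeR without FlncgKO library 3 and 0 without any other, and 8 or 9 in DESeq2. Genes called over all genes, 210 in edgeR, were 554 with no filter, 74 under length offsets, 0 under the Y-linked covariate (906 genes higher at an unadjusted p under 0.05, and 265 called by DESeq2 with that covariate), 1349 in DESeq2, 1230 in DESeq2 with length offsets and 1021 in DESeq2 with the replicate block. With 1 library left out they ran from 1 to 1805. In DESeq2 they were 665, 674 and 1223 without control libraries 1, 2 and 3, and 1176, 687 and 1805 without FlncgKO libraries 1, 2 and 3, and in edgeR 1272 without FlncgKO library 3. The cause of these differences was not tested. The minimum of 10 counts in every library left 5 receptor genes tested, without *Gp1bb*, *Gp9*, *Gp5* and *Treml1*. The *Gp1bb* to *Gp1ba* difference was 0.29 from estimated counts. The *Gp9* to *Gp1ba* difference of 2.00 was 1.31 without control library 2, and the *Clec1b* to *Gp6* difference of 0.62 was 0.39 without control library 1. The *Fcer1g* to *Gp6* difference, which passed no test, was −0.35 from TPM, 0.14 from counts, 0.47 without control library 3 and −1.21 without control library 2.

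With the replicate block in edgeR, 4 receptor genes (*Gp9*, *Gp5*, *Gp6* and *Treml1*) and 632 genes in all were called. Libraries of the same number correlated in their deviations at 0.0428, 0.571 and 0.605, and each FlncgKO library correlated best with the control of its own number, while control library 1 correlated best with FlncgKO library 2 (0.192). Whether equal numbers mark littermates is not stated in the sources used here, and with 1 correlation near 0 the libraries were kept unpaired. For the ratios the block cannot move the mean difference, and p was 0.25, the smallest it allows, for the 6 separated pairs. Control levels of *Gp9*, *Gp5* and *Treml1* rest on 1 to 12 counts per library, which limits their fold changes.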
